A study of Homo sapiens with 2 samples.

Results

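The RNA exosome is a complex that degrades and trims RNA from the 3′ end, and its core and nuclear nuclease are encoded by the genes EXOSC1 to EXOSC10. All 10 genes were found on the array by taking every probe set whose only gene symbol was one of these names, which gave 25 probe sets of 54675 and 10 of 19775 annotated genes. Expression was measured in Eol1 cells, an established line from a human eosinophilic leukaemia, which express the fusion kinase FIP1L1-PDGFRA and depend on it for growth. The Glivec group was 1 culture kept for 4 h in 100 nM Glivec, the brand name of imatinib, which blocks the PDGF receptor, KIT and ABL kinases, and the control group was 1 untreated culture of the same line. Biotin-labelled RNA of each culture was read on 1 Affymetrix array, so there were 2 arrays, 1 line and no replicates.

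The core of the exosome is a barrel without catalytic activity of its own in human cells. EXOSC4 to EXOSC9, which resemble the bacterial enzyme RNase PH, form a ring in pairs, and EXOSC1, EXOSC2 and EXOSC3 carry S1 or KH RNA-binding folds and cap the ring where RNA enters. The nucleases DIS3, DIS3L and EXOSC10 bind to this core and cut the RNA. In the nucleolus the exosome trims the 3′ end of 5.8S ribosomal RNA and removes spacer fragments of the ribosomal RNA precursor, in the nucleoplasm it removes promoter upstream and enhancer transcripts, and in the cytoplasm it degrades messenger RNA bodies.

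Signals are the authors' MAS5 intensities on a linear scale. A floor was set at a signal of 13.7, the median of all signals on both arrays without the control probe sets, and a ratio with 1 array at the floor is a bound. Each gene was represented by its brightest probe set, with those marked as cross-hybridising (_x_at) used only where no other was present. With 1 array a group the design allows no test, and no p-values are printed. Error could be gauged only from how far the probe sets of 1 gene lie apart: the SD between them, pooled from 5603 genes, was 0.325 in log2 units, and it holds nothing of the variation between cultures. This SD is that of the ratio of 1 probe set, and a difference between the ratios of 2 genes has a wider spread. The part of culture or hybridisation in each difference cannot be told apart from that of Glivec. The genes were selected by name but on the Glivec and untreated signals given below, with those in view, so the differences are a description and none is offered as a test.

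The exosome genes ranged from lower to nearly level. EXOSC2, EXOSC3, EXOSC4, EXOSC6 and EXOSC7 were 1.62-fold to 2.92-fold lower on the Glivec array, EXOSC5 was lower by a smaller amount, and EXOSC1, EXOSC8, EXOSC9 and EXOSC10 had log2 ratios (Glivec over untreated) between -0.15 and 0.26. In all 7 of 10 were lower, beside 41.0% of 12705 measured genes, and 3 were higher, beside 59.0%. At a threshold of 2-fold, 1 of 10 members was lower, beside 2.63% of the measured genes, and 0 were higher, beside 3.13%. At 1.5-fold 5 of 10 were lower, beside 8.33% of all measured genes, and 0 were higher, beside 13.5%. The median log2 ratio of the 10 genes was -0.57, and that of all measured genes was 0.097. All 10 had both arrays above the floor.

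**Figure D1:**
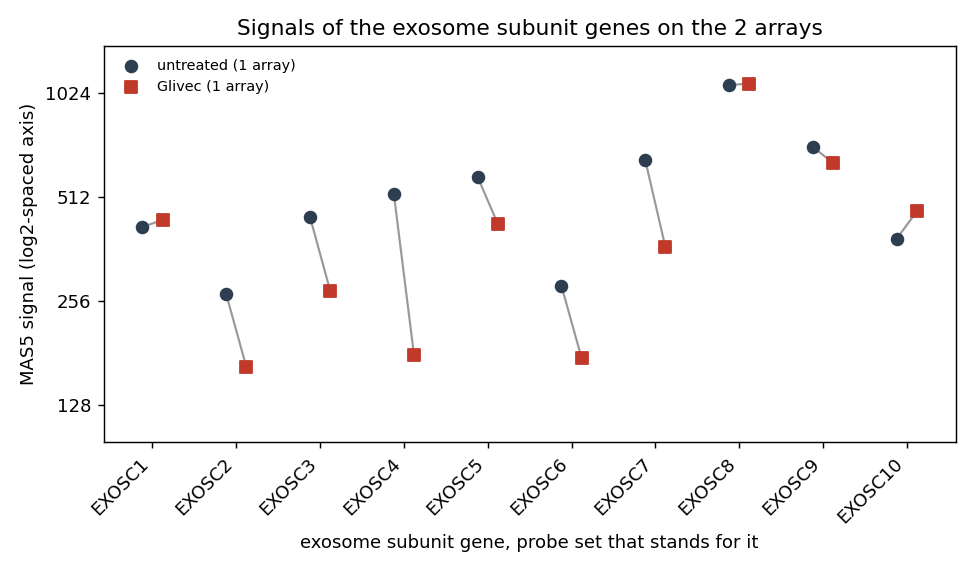
MAS5 signal of each exosome subunit gene (vertical axis, log2-spaced) on the untreated array (circles) and the Glivec array (squares), 1 probe set a gene, with a line joining the 2 arrays. EXOSC4 has the steepest line, from 523 to 179, and EXOSC8 is level at 1079 and 1089. Heights of different genes come from different probes and cannot be compared.

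Within the ring the values are given by the pairs in which the subunits sit. EXOSC4 had a signal of 179 with Glivec and 523 without, a 2.92-fold lower level and a log2 ratio of -1.54. Its partner EXOSC9, known as an autoantigen in polymyositis and scleroderma overlap, had signals of 643 and 714 and a log2 ratio of -0.15. This pair was the least alike of the ring, with log2 ratios 1.39 apart, a distance above the pooled SD between probe sets of a gene. EXOSC5 had signals of 428 with Glivec and 585 without, which is 1.37-fold lower. Its partner EXOSC8 had signals of 1089 and 1079 and a log2 ratio of 0.013, so that the log2 ratios in this pair were 0.46 apart.

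In the third pair both partners were at least 1.5-fold lower. EXOSC6 had signals of 175 with Glivec and 283 without and was 1.62-fold lower. EXOSC7 had signals of 367 and 654 and was 1.78-fold lower. Their log2 ratios, -0.69 and -0.83, were 0.14 apart, which is less than the pooled SD. Over the 6 ring genes the median was -0.57, with 5 lower and 1 higher, and 3 of them were at least 1.5-fold lower. Of all measured genes 41.0% were lower, 59.0% higher and 8.33% at least 1.5-fold lower.

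Of the cap genes, both that carry a KH fold beside the S1 fold were lower and the remaining one was level. EXOSC2 had signals of 165 with Glivec and 268 without, or 1.62-fold lower. EXOSC3, in which inherited mutations cause pontocerebellar hypoplasia, had signals of 275 and 448, or 1.63-fold lower. EXOSC1, the cap subunit without a KH fold, had signals of 439.6 and 419 and a log2 ratio of 0.069. The log2 ratios of EXOSC2 and EXOSC3 were -0.70 each.

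EXOSC10, the distributive exonuclease of the nuclear and nucleolar complex, had the highest ratio of the 10 genes. Its signals were 465 with Glivec and 388 without, a log2 ratio of 0.26. The processive nucleases that also bind the core were lower by their brightest probe sets. DIS3, the nuclear enzyme, had signals of 424 and 617, and its log2 ratio was -0.54. Of 5 DIS3 probe sets above the floor on both arrays the log2 ratios ran from -0.72 to 0.13, so its direction depends on the probe set: with only probe sets of unmarked suffix (_at) DIS3 is at 0.13, and the median of both enzymes goes from -0.41 to -0.071. DIS3L, its cytoplasmic counterpart, had signals of 331 and 399 and a log2 ratio of -0.27.

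The separate probe sets of each gene show how firm these ratios are within the 2 arrays. Of 25 exosome probe sets, 21 were above the floor on both arrays, 2 on 1 array and 2 on neither. Of the 21, 17 were lower with Glivec and 4 higher, beside 43.9% lower among all 21067 such probe sets. Their median log2 ratio was -0.69, and that of all such probe sets was 0.068.

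EXOSC4 was lower by all 3 of its probe sets, each past 2-fold. The second had signals of 155 with Glivec and 378 without, and the third had 83.4 and 254. The log2 ratios were -1.61, -1.54 and -1.29, with an SD of 0.17 (3 probe sets). Among 2597 genes with at least 3 probe sets above the floor on both arrays, 12 (0.462%) had all of them at least 2-fold lower, and EXOSC4 is one of these 12.

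All 6 EXOSC3 probe sets were lower, but by unequal amounts. Of the bright ones, the 2 marked as cross-hybridising had log2 ratios of -0.88 (signals of 326 with Glivec and 599.9 without) and -1.09 (131 and 279). Of the dim ones, 2 with signals of 27.2 to 48.4 had log2 ratios of -0.32 and -0.18, and another, near the floor at 14.8 and 29.2, had -0.99. The SD over the 6 was 0.37. Of the 3 EXOSC2 probe sets, the second bright one had signals of 147 and 252 and a log2 ratio of -0.78, and the dim one was at least 1.42-fold lower, with its Glivec signal at the floor. Both EXOSC7 probe sets were lower, with log2 ratios of -0.83 and -0.67.

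The EXOSC6 probe sets disagreed. The brightest had a log2 ratio of -0.69, another was higher with Glivec at 0.14 (signals of 128 and 116), and the dimmest had -0.44 (42.2 and 57.1). The SD over these 3 was 0.43, so the EXOSC6 difference is the least firm of the 5 that passed 1.5-fold. The mean over the 3 was -0.33, which is under 1.5-fold. EXOSC5, EXOSC8 and EXOSC9 each rest on 1 probe set, and EXOSC1 and EXOSC10 on 1 that is above the floor on both arrays. The dim EXOSC10 probe set was at least 1.36-fold higher (18.6 with Glivec against 5.62), and the 2 dim EXOSC1 probe sets were below the floor on both arrays. A probe set that the annotation gives to both EXOSC7 and the neighbouring CLEC3B was left out, and it was below the floor on both arrays, at 2.49 and 4.87.

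**Figure D2:**
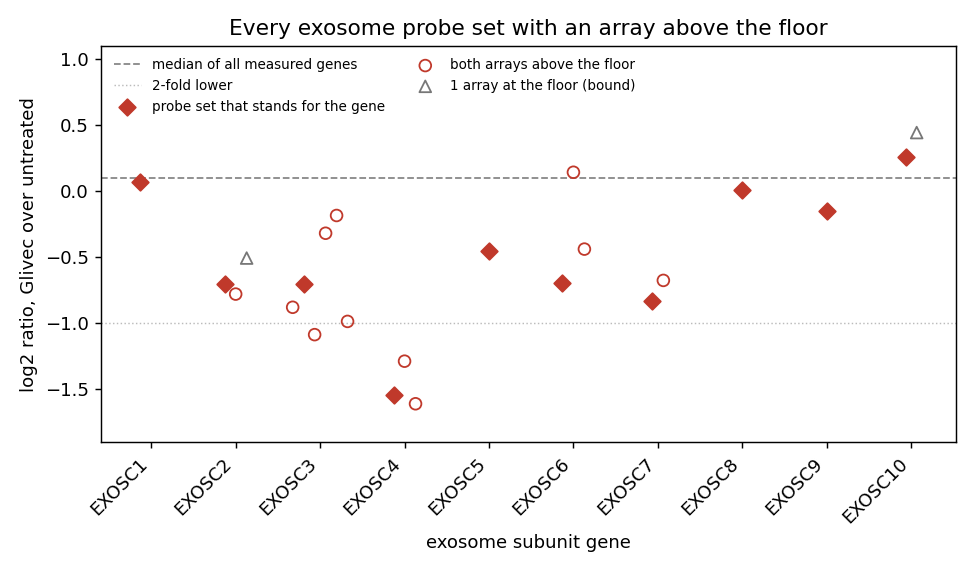
log2 ratio of Glivec over untreated (vertical axis) for each exosome probe set with at least 1 array above the floor. Filled diamonds stand for the gene, circles are the other probe sets, and triangles are bounds. All 3 EXOSC4 probe sets lie below the dotted 2-fold line, between -1.61 and -1.29, and the EXOSC6 probe sets lie on both sides of 0.

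Placed among all 12705 measured genes, EXOSC4 lay near the lower end: 95 genes (0.748%) had a lower ratio. For EXOSC7 this share was 4.21%, for EXOSC3 5.97%, for EXOSC2 6.04%, for EXOSC6 6.19% and for EXOSC5 12.2%. EXOSC9 was at 28.8%, EXOSC8 at 42.1%, EXOSC1 at 47.2% and EXOSC10 at 65.8%. In this order the step from EXOSC4 to EXOSC7 was 0.71 on the log2 scale, and it is the only step between neighbours above the pooled SD of 0.325. EXOSC3, EXOSC2 and EXOSC6 followed each other by steps of 0.0050 and 0.0078 and have no order. The range from EXOSC4 to EXOSC10 held 8270 of the measured genes (65.1%), so with 2 arrays no gene is named here for a pattern like that of the exosome.

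**Figure D3:**
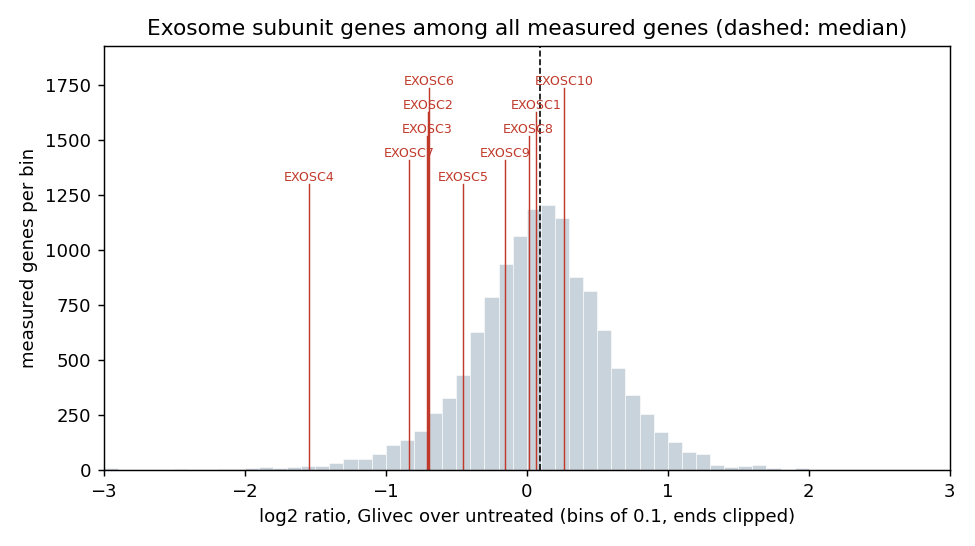
Number of measured genes (vertical axis) per bin of log2 ratio, Glivec over untreated (horizontal axis), with a red line at each exosome subunit gene and a dashed line at the median of all genes, 0.097. EXOSC4 stands alone at -1.54, EXOSC7, EXOSC3, EXOSC2 and EXOSC6 lie close together between -0.83 and -0.69, and EXOSC8 and EXOSC1 lie beside the median.

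The arrays differed in ways that bear on these values. The 18 probe sets of the hybridisation spike-ins, which are bacterial and phage RNAs added in equal amount under the standard protocol, had a median log2 ratio of 0.74. With the arrays scaled to these RNAs instead, the median of all measured genes went from 0.097 to -0.59 and the exosome median from -0.57 to -1.31, and all 10 exosome genes were lower, beside 90.0% of 12838 measured genes. Whether EXOSC1, EXOSC8 and EXOSC10 are level, higher or lower thus depends on the scaling, and their log2 ratios with spike-in scaling were -0.67, -0.73 and -0.48. Relative to the median of all genes, EXOSC4 was at -1.64 with the deposited scaling and at -1.69 with spike-in scaling. The 398 genes at least 2-fold higher and 334 lower with the deposited scaling became 43 and 2484 by spike-in scaling. Loess left 213 higher and 469 lower, quantile normalization 290 and 398, and median centring 272 and 448. Median centring put EXOSC1 at -0.029 and EXOSC8 at -0.084. Which scaling holds was not tested. Of 9 eosinophil markers with a probe set, PRG2, RNASE2 and GATA2 were above the floor on both arrays. IL5RA, SIGLEC8, GATA1 and PRG3 were below it on both. EPX was above it on the Glivec array alone (27.2), and CLC on the untreated array alone (19.4). All 6 general myeloid markers with a probe set were above it on both arrays. Of 7 T and NK cell markers, CD3D, CD3G, CD2 and CD247 were below it on both arrays. CD3E and KLRD1 were above it on the untreated array alone (21.0 and 16.1). NKG7 was well above it, at 697 with Glivec and 853 without. Their part in the exosome values was not tested.

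The proteins that feed RNA to the exosome had ratios nearer those of all genes. Of 23 genes in 5 lists of partners (DIS3 and DIS3L, nuclear cofactors, the NEXT and PAXT targeting complexes, the TRAMP polyadenylation complex and the cytoplasmic SKI complex), 21 were measured. Their median log2 ratio was -0.055, with 11 lower and 10 higher, beside 41.0% and 59.0% of all measured genes. At 1.5-fold 1 was lower and 1 higher, beside 8.33% and 13.5%. At 2-fold 0 passed, beside 2.63% lower and 3.13% higher. With spike-in scaling the medians of NEXT and PAXT, TRAMP and SKI were -0.65, -0.91 and -0.74.

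Among nuclear cofactors, the helicase gene MTREX, which unwinds RNA for the exosome, had signals of 763 with Glivec and 835 without and a log2 ratio of -0.13, and its other probe set had -0.12. NRDE2, an inhibitor of that helicase, was at 0.14, but its other probe set above the floor on both arrays was at -0.39. NVL, a remodelling ATPase of the nucleolus, was at -0.090. UTP18, a subunit of the small subunit processome known in yeast to recruit the helicase, was the gene at least 1.5-fold lower, with signals of 823 and 1246. Its other probe set above the floor on both arrays was at -0.33, which is under 1.5-fold. The list median over 5 measured genes was that of NVL. NOP53 was below the floor, and MPHOSPH6 is not analysed here.

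In the NEXT and PAXT complexes, which deliver short-lived nuclear transcripts, 5 of 7 genes were higher and 2 lower, with a median of 0.089. Of all measured genes 59.0% were higher and 41.0% lower. The NEXT scaffold gene ZCCHC8 was at 0.10, and the PAXT scaffold gene ZFC3H1 was at 0.12. ZC3H3 was at 0.48. RBM27 was at -0.41, but its other probe set above the floor on both arrays was at 0.13. In TRAMP, the polymerase genes TENT4A and TENT4B were at -0.44 and -0.17 and the zinc knuckle gene ZCCHC7 was at 0.46. In the SKI complex, the helicase gene SKIC2 was 1.54-fold higher, with signals of 228 and 147, while SKIC3 and SKIC8 were at 0.058 and -0.063 and the bridging factor HBS1L was at -0.30. Probe sets of SKIC3 ran from -0.58 to 0.058, those of SKIC8 from -0.35 to 0.44 and those of HBS1L from -0.30 to 0.39. The directions of SKIC3, SKIC8 and HBS1L thus depend on the probe set.

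Other RNA decay enzymes had a median of -0.043 over 23 genes, with 8 higher and 15 lower, beside 59.0% and 41.0% of all measured genes. At least 1.5-fold lower were 3 of them, beside 8.33%, and at least 2-fold lower 1, beside 2.63%. ISG20L2, a nucleolar exonuclease that also trims 5.8S ribosomal RNA, was the one gene past 2-fold, with signals of 149 with Glivec and 368 without (2.47-fold lower) and a second probe set at -0.88. PNPT1, the mitochondrial polynucleotide phosphorylase, whose domains resemble those of the exosome ring, was 1.94-fold lower (309 and 599.3). DIS3L2, a relative of DIS3 that works without the exosome, was 1.59-fold lower at low signal (28.3 and 45.1), and its other probe sets reached 0.088. The helicase gene DDX6, which promotes decapping, was at -0.57, and its 3 probe sets above the floor on both arrays reached -0.22. In the other direction the deadenylase subunit gene PAN3 was at 0.65.

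Proteins that bind AU-rich elements or viral RNA, several of which are known to bring RNA to the exosome, had a median of 0.32 over 7 genes, or -0.42 with spike-in scaling. ZC3HAV1, the zinc finger antiviral protein gene, was 2.10-fold higher (592 and 282), and its 3 probe sets ran from -0.034 to 1.07. ZFP36L2, which binds AU-rich elements, had signals of 3726 and 2343 and a log2 ratio of 0.67, with other probe sets up to 1.48. ZFP36 was at 0.43, KHSRP at 0.32 and ELAVL1, which stabilises AU-rich transcripts, at -0.15. The 4 KHSRP probe sets above the floor on both arrays ran from 0.21 to 1.596, and the 4 of ELAVL1 from -1.245 to -0.12. The size of the KHSRP and ELAVL1 ratios thus depends on the probe set.

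Ribosome assembly factors share the nucleolar RNA substrates of the exosome, and their medians lay beside that of the exosome. Small subunit processome and 40S assembly genes had a median of -0.60 over 44 genes, with 43 lower, 24 at least 1.5-fold lower and 9 at least 2-fold lower. UTP15, PNO1, WDR3 and BYSL were 4.25-fold, 3.69-fold, 3.16-fold and 2.997-fold lower. Second probe sets of UTP15 and PNO1 had log2 ratios of -1.49 and -0.98, beside -2.09 and -1.88 for the brightest. WDR3 and BYSL had 1 probe set each above the floor on both arrays. The 60S assembly genes had a median of -0.55 over 38 genes, with 33 lower, 19 at least 1.5-fold lower and 9 at least 2-fold lower, led by NIP7 at 4.03-fold. Beside the counts of both lists, 41.0% of all measured genes were lower, 8.33% at least 1.5-fold lower and 2.63% at least 2-fold lower. A difference between the exosome and these lists cannot be tested with 1 array a group. The proteasome core particle, another ring of many subunits, had a median of -0.037 over 13 genes. Of these 1 (7.69%), PSMB5, was at least 1.5-fold lower (741 and 1252), beside 8.33% of all measured genes. The proteasome median was -0.13 with median centring and with loess. With spike-in scaling the medians of the 40S, 60S and proteasome lists were -1.34, -1.29 and -0.77.

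**Figure D4:**
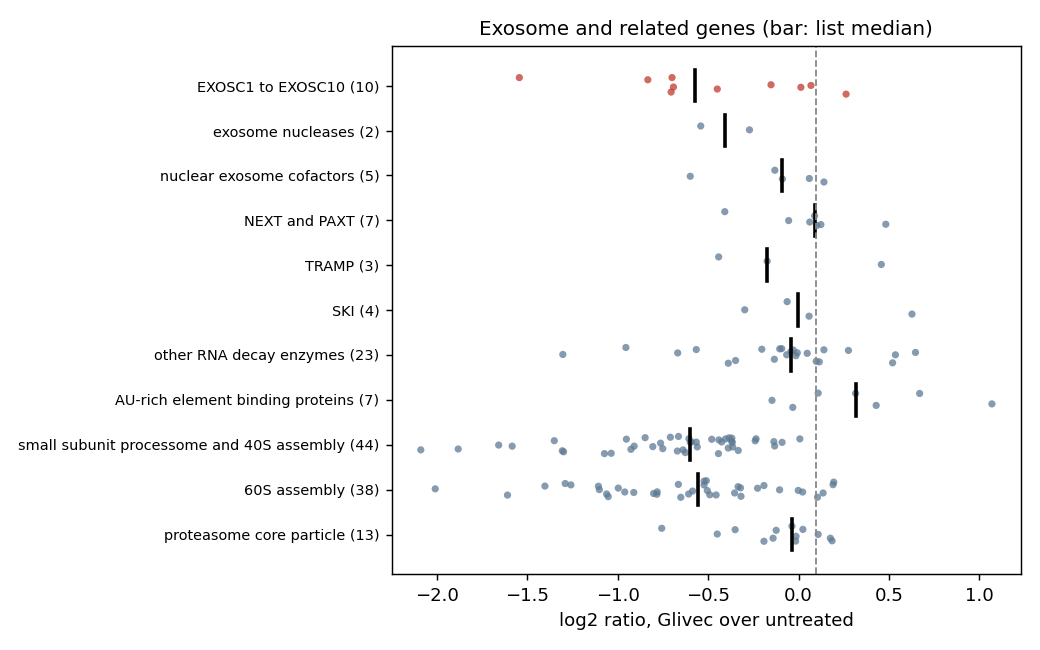
log2 ratio of Glivec over untreated (horizontal axis) for each measured gene of the exosome and of 10 related lists, with the number of genes in brackets. Black bars are list medians and the dashed line is the median of all measured genes. The exosome median of -0.57 lies beside those of the 40S and 60S assembly lists (-0.60 and -0.55), and those of NEXT and PAXT, SKI and the proteasome lie between -0.037 and 0.089.

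MYC, whose protein binds the E-box with its partner MAX at many ribosome assembly genes, had signals of 557 with Glivec and 3781 without. The promoter windows of the exosome genes are therefore shown for E-box letters, and no binding was measured here. RefSeq windows of 300 bases, from 250 before to 50 after the start of the gene in GRCh38.p14, were found for 8 of the 10 genes, and EXOSC1 and EXOSC4 were not matched. Both strands were searched for the E-box CACGTG. The same was done for an E-box variant with the letters CACGCG. The ETS site was searched by its core CCGGAAGT, and the NRF1 site by its palindromic core. No matches of different motifs overlapped in these windows.

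The E-box was in 1 of the 8 windows, that of EXOSC5, beside 9.31% of 14722 windows of measured genes and 7.26% of all 35116. It occurs there 2 times, beginning 89 bases before the start of the gene and at base 15 after it. The variant was in 3 of 8 windows, beside 16.6% and 11.4%: in EXOSC5 beginning 54 bases before the start, in EXOSC3 226 bases before it and in EXOSC10 22 bases before it. The ETS and NRF1 cores were in 0 of 8 windows, beside 7.21% and 1.97% of the windows of measured genes. Members were counted by the window at the start of the gene alone, but the background shares include windows at other starts. A second EXOSC3 window, at another start, had no match and is not among the 8. The windows with a match thus belong to a gene that was 1.63-fold lower, one that was 1.37-fold lower and one that was higher with Glivec. EXOSC2, EXOSC6 and EXOSC7, which were lower, had no match, and neither had EXOSC8 and EXOSC9. The 250 bases before the start are shown 5′ to 3′ for the 3 genes with a match, with the matched letters in capitals, from chr9:37785093-37785342 (minus strand), chr19:41397360-41397609 (minus strand) and chr1:11099870-11100119 (minus strand).
EXOSC3: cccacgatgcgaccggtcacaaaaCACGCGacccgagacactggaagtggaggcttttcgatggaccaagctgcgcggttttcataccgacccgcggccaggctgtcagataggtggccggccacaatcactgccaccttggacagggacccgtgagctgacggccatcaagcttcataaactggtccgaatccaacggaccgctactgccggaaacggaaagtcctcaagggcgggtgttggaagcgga
EXOSC5: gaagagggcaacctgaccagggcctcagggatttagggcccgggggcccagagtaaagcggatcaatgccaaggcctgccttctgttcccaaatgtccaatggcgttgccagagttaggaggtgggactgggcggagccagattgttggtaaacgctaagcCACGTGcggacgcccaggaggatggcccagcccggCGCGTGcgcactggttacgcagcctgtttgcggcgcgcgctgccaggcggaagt
EXOSC10: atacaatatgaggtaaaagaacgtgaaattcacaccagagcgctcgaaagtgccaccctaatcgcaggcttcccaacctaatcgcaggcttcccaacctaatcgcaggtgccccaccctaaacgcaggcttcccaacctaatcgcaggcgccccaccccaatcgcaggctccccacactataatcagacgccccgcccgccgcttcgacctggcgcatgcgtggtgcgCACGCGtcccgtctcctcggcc

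EXOSC4 had the lowest and EXOSC10 the highest ratio of the measured members under each of the 10 alternatives tried. Most of these could not change that order. Median centring and spike-in scaling shift all members alike, the moved floors left their ratios unchanged, and the pseudocount is small beside their signals. Only quantile normalization, loess and the choice of probe sets could reorder them. With only probe sets of unmarked suffix EXOSC10 was at 0.44, a bound from its dim probe set. Relative to the median of all genes EXOSC4 stayed between -1.69 and -1.57, and EXOSC7 between -0.98 and -0.77. EXOSC3 and EXOSC6 moved more, to -0.27 for EXOSC3 with only probe sets of unmarked suffix, where a dim probe set stands for the gene, and to -0.42 for EXOSC6 with the mean over probe sets. EXOSC1 and EXOSC8 lay within 0.14 of the median of all genes throughout.

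**Figure D5:**
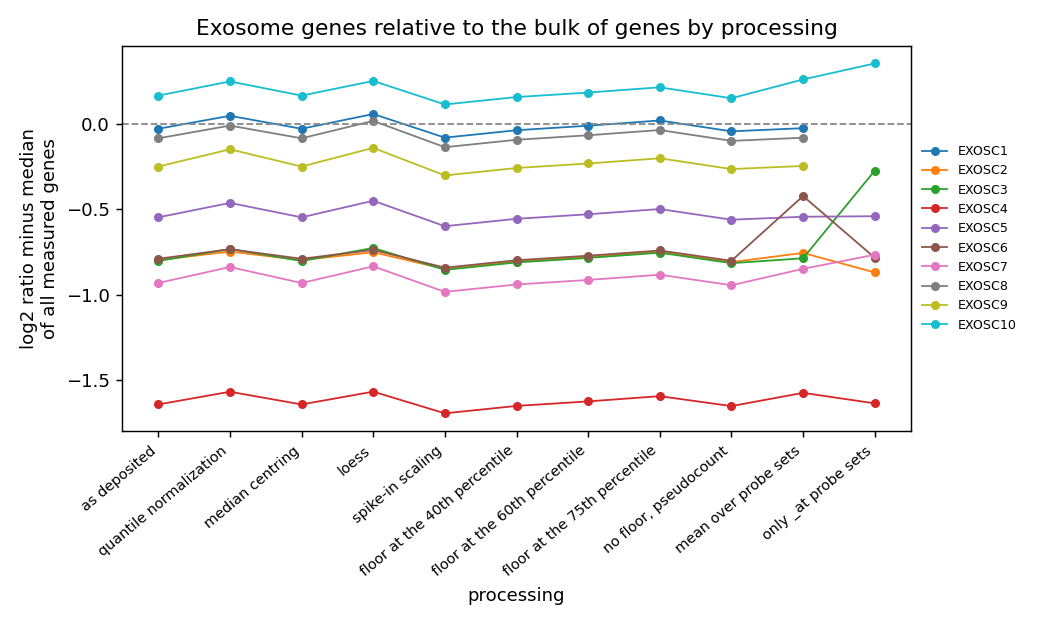
log2 ratio of each exosome gene minus the median of all measured genes (vertical axis) as deposited and under 10 alternatives (horizontal axis), with 1 line a gene. EXOSC4 stays between -1.69 and -1.57 and apart from the others, and the rises of EXOSC3 and EXOSC6 at the right come from the choice of probe set.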

How the data were processed

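The authors deposited 1 linear signal intensity per probe set and array, which per the submitters' processing notes came from MAS5 (version not stated there). After trimming 2% of signals at each end, the mean was 100.014 on both arrays, so the authors' values share 1 scale. Of 54675 probe sets, 41097 had 1 gene symbol in the platform's annotation, which can be old, 1801 had several and 11777 had none. No detection calls and no protein sequences were used here.

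Signals below the floor of 13.7 were raised to it, and log2 ratios were taken of Glivec over untreated. Measured genes were those above the floor on 1 or both arrays (12705). The exosome genes and all gene lists were chosen with earlier results of these data known. Named genes were all 10 members, MYC, in the RNA decay lists those past 2-fold and up to 4 others by size of ratio, and up to 4 in each ribosome assembly and proteasome list. Alternatives were quantile normalization, median centring, loess (span 0.3), spike-in scaling, a pseudocount of 1 in place of the floor, the floor moved to the 40th, 60th or 75th percentile, averaging a gene's probe sets, leaving out those with an _s_at, _x_at or _a_at suffix, and a 3-fold threshold. The calculation was tested on simulated signals. The marker lists for B cells, T and NK cells and erythroid cells held 2, 1 and 0 genes above the floor on both arrays. These counts use the probe set that stands for each gene. The erythroid gene HBB had 2 other probe sets above the floor on both arrays, with log2 ratios of -0.064 and 0.014. Python 3.11.15, numpy 2.4.6, pandas 2.3.3, scipy 1.17.1, statsmodels 0.14.6 and matplotlib 3.10.9 were used.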

Additional observations from a re-analysis of the deposited data

How the results depend on the processing

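All alternatives were planned with earlier results of these data known. No paired analysis was possible because there is a single array per group, which also leaves no replicate to omit. Here a value counts as moved if its shift was larger than the pooled SD between probe sets (divided by the square root of the number of genes for a median) or, for a count, if it changed by more than 1.5 times. Of 97 member ratios under the alternatives, 85 did not move. Many of these could not, so the count is no measure of robustness. The moved floors left member ratios unchanged, the pseudocount is small beside their signals, and median centring shifts every ratio by 0.097. The other 12 were the 10 with spike-in scaling, which shifts every member by 0.74, EXOSC6 with the mean over probe sets (-0.33) and EXOSC3 with only unmarked probe sets (-0.18). With only unmarked probe sets EXOSC1, EXOSC8 and EXOSC9 had no value. With spike-in scaling 6 exosome genes were at least 2-fold lower, beside 19.3% of all genes (2484, with 43 higher), and 9 at least 1.5-fold lower, beside 50.5%, with a median of -1.31, and the median of the AU-rich element list turned to -0.42. With the mean over probe sets the exosome median was -0.39. With only unmarked probe sets the median of DIS3 and DIS3L was -0.071 and that of the SKI list 0.39. At 3-fold, 0 exosome genes and 86 genes in all were lower. Of all genes, 213 were at least 2-fold higher after loess, 735 with the floor at the 40th percentile, 234 at the 60th and 91 at the 75th, where 176 were lower, and with no floor 2252 were higher and 1705 lower. Floors and the pseudocount change which genes count as measured; the cause of the other shifts was not tested. For the dim probe sets, nearness to the floor limits the ratios that could be seen.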
